A study of Rattus norvegicus with 8 samples.

Results

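The cytosolic ribosomal proteins were followed in the livers of thioacetamide-treated rats. The members were all probe sets whose gene symbol in the deposited files, or whose current symbol for the same gene identifier, began with Rps or Rpl and a digit, or was Rplp0, Rplp1, Rplp2 or Rpsa, with the S6 kinase genes left out. This gave 245 of the 26208 probe sets of the array. A probe set is the group of 2 or 3 probes that measures 1 transcript. Of the 245, 70 stood for known RefSeq transcripts (prefix NM_) and 175 for predicted ones (prefix XM_). These classes are given separately, except for the start sequences, the families of copies and the related gene lists, which use both. The NM_ probe sets covered 64 canonical ribosomal protein genes and 6 copies. The XM_ probe sets held 12 for canonical genes, 5 for paralogs or look-alikes and 158 for copies, of which RefSeq names 73 as pseudogenes and 85 as "like" genes. Together 74 canonical genes had at least 1 probe set, and all 245 members had a value on all 8 arrays. By the symbol in the files 80 members were found, and 165 were found through the current symbol alone.

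The 8 samples were livers of male F344/N rats. The 4 control rats had basal diet and tap water without treatment, and the other 4 received thioacetamide, a liver toxicant activated by liver enzymes, for 28 days. Gavage is the labelled route in each group, and neither dose nor age is stated in the sources used here. Each array carried 1 colour (Cy3), and the deposited values are log2 signals from RMA, which combines a background correction, a normalization across arrays and a summary over the probes of a set. Each array is 1 animal, so the spread is that between animals.

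Ribosomal proteins and ribosomal RNA form the small and large subunits of the ribosome. The small subunit reads the mRNA, and the large subunit joins amino acids and carries the acidic stalk, which recruits elongation factors. Most mRNAs of ribosomal proteins begin with a C followed by a run of pyrimidines, the terminal oligopyrimidine (TOP) tract, through which mTOR signalling and the RNA-binding protein Larp1 control their translation as a group. Arrays measure the amount of these mRNAs and not their translation. Ribosomal protein mRNAs have also been copied back into mammalian genomes very often, so that many genes have numerous processed pseudogenes with near-identical sequence.

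The start of these genes is shown because the TOP tract is the sequence feature that the group is known for. RefSeq promoter sequences of the GRCr8 assembly were matched to 59 of the 74 canonical genes. A tract was called where the annotated first base was C and was followed by at least 4 bases that were each C or T, on the gene's own strand. The following windows hold 30 bases, 12 before the annotated start and 18 from it on, 5′ to 3′, with the tract in capitals. The first 4 genes rose with thioacetamide and have the tract, the next 2 are among the NM_ genes with the longest tracts and did not pass the test, and the last 2 rose and have no tract at the annotated start.
Rpl19 (chr10:83519052-83519081, + strand): gaccagcaagctCTTTCCTTTCgctgctgc
Rplp0 (chr12:46718373-46718402, - strand): cgcaccgcacttCTCTCgccaggcgtcctc
Rps26 (chr7:1643387-1643416, - strand): agccgccgggtcCTCTTTCgagtcttggct
Rpl28 (chr1:78083515-78083544, - strand): cgcccctagtgtCTTTCTTTCCgtctccgg
Rpl10 (chrX:157205838-157205867, + strand): gcgtgggagcgtCTCTTTTCCTCTggcgcg
Rpl31 (chr9:49143099-49143128, + strand): caatccctcgcgCCTTTCCTTTCCaacttg
Rps19 (chr1:89608676-89608705, + strand): gacttgtgcgcccgggaaaccccgtcgttc
Rpl13a (chr1:104748896-104748925, - strand): cttcctttcctaggcggctgccgaagatgg

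By this definition 23 of the 59 canonical genes (39.0%) had a tract at the annotated start, against 722 of all 27457 genes with a start sequence (2.63%). Tract lengths ran from 5 to 12 bases. A looser search for at least 7 pyrimidines in a row between 10 bases before and 15 after the start, which overlaps the first, found 41 (69.5%) of the canonical genes against 14.0% of all genes. In Rpl13a such a run lies just before the annotated start. The median log2 difference between thioacetamide and control was 0.42 for the 23 genes with a tract and 0.43 for the 36 without. Of these genes 4 and 5 passed the test described next. Each gene was taken from its probe set with the highest mean signal, whether NM_ or XM_. A match describes the annotated letters only.

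Among the NM_ probe sets, 12 of the 70 members were higher with thioacetamide at an adjusted p under 0.05 and none was lower (limma, Benjamini-Hochberg adjustment over all 26208 probe sets). The share of 17.1% stood beside 12.2% of all NM_ probe sets called higher and 6.14% called lower (over NM_ and XM_ together, 9.46% and 5.14%). At an unadjusted p under 0.05 the count was 28 higher and 0 lower, beside 2063 higher and 1199 lower of all 10097 NM_ probe sets. The difference was above 0 for 63 of the 70 (90.0%), against 50.8% of all NM_ probe sets, with a median of 0.39 on the log2 scale (1.31-fold) against 0.01. In 27 members (38.6%) every treated array lay above every control array, and in none was it the reverse, where 17.8% of all NM_ probe sets were separated upward and 9.39% downward. These comparison sets include many probe sets without signal above background. Among probe sets above background on at least 4 arrays, 18 of 67 members (26.9%) were called higher against 24.4% of all NM_ probe sets kept, so the members' share of calls was near that of expressed transcripts, and the median was 0.40 against 0.21. The changes were thus small and ran mainly in 1 direction, and most did not pass the test singly.

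The count of 12 moved with the arrays used, and its excess over the background did not hold in every fit. It was 4 (5.71%, against 8.38% of all NM_ probe sets in that fit) without thioacetamide replicate 1, 6 (8.57% against 7.64%) without replicate 2 and 7 (10% against 10.9%) without replicate 4 of that group; without replicate 3 it was 10 (14.3% against 8.99%). Leaving out 1 control gave 5 (7.14% against 10%) for replicate 1, 6 (8.57% against 9.58%) for replicate 2, 8 (11.4% against 12%) for replicate 4 and 14 (20% against 12%) for replicate 3. Over the whole array the second principal component (19.8% of the variance) was -56.1, -14.8, 57.5 and -57.8 in control replicates 1 to 4. In thioacetamide replicates 1 to 4 it was 8.5, 5.2, 5.8 and 51.8. Control replicates 2 and 3 and thioacetamide replicate 4 were taken as standing apart, though control replicate 2 lay between the other controls. Without these 3 arrays the NM_ median was 0.49 and 65 of 70 differences were above 0, with 9 members called higher (12.9%, against 10.9% of all NM_ probe sets) and 1 lower. The signal of 1227 olfactory receptor probe sets, whose 95th percentile on each array is taken as the background level here, lay at 6.95 to 7.94 in controls and 6.54 to 6.95 in treated rats. Of the 70 NM_ members 65 were above it on all 8 arrays. The 1228 non-member probe sets with a mean log2 signal above 13 had a median difference of 0.00 with quartiles of -0.38 and 0.31, and 617 of them were above 0. All 8 hepatocyte markers (Alb, Apoa1, Apob, Ttr, Tf, Serpina1, Fgb and Ahsg) were above background on every array and none passed the test, the largest differences being 0.18 for Apoa1 and -0.13 for Apob. Their signals lie near the top of the array's range, where the highest mean was 15.93, so that small differences there do not show a constant level.

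Most of the 64 canonical NM_ genes stood above their control level on each treated array. Set against each gene's own control mean, the median deviation was -0.09, 0.05, 0.18 and -0.17 in control replicates 1 to 4, and 0.56, 0.36, 0.26 and 0.62 in thioacetamide replicates 1 to 4. In the treated rats 62, 56, 50 and 62 of the 64 genes lay above their control mean, and in the controls 16, 39, 54 and 11. These counts overlapped, since control replicate 3 had more genes above the mean than thioacetamide replicate 3. The medians of the groups did not overlap, but the lowest treated array (replicate 3, 0.26) and the highest control array (replicate 3, 0.18) lay close together. The median difference of these 64 genes was 0.42 (1.34-fold), with quartiles of 0.31 and 0.59 and a range from -0.81 to 0.95, and 61 were above 0.

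**Figure D1:**
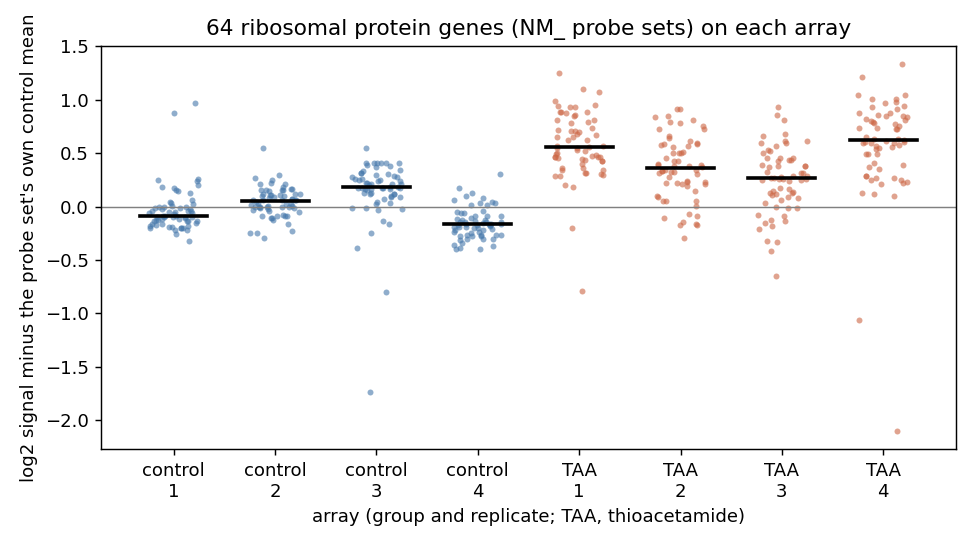
Each point is 1 of the 64 canonical ribosomal protein genes measured by an NM_ probe set, as its log2 signal on an array minus its own mean over the 4 control arrays. The black bars are the array medians, which lie between -0.17 and 0.18 in controls and between 0.26 and 0.62 in treated rats (TAA, thioacetamide).

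In the small subunit, 25 of 28 canonical NM_ genes had a difference above 0, with a median of 0.40. The test was passed by 4 (14.3%, against 12.2% of all NM_ probe sets, many of them without signal above background). Rps19, needed for maturation of the small subunit and often mutated in Diamond-Blackfan anaemia in humans, had log2 signals of 13.18, 13.51, 13.81 and 13.10 in controls and 14.65, 14.06, 14.26 and 14.45 in treated rats. The treated arrays were all higher, by 0.95 ± 0.23 (SE; 1.94-fold, adjusted p = 0.0197). Rps12 read 13.80, 14.04, 14.26 and 13.80 in controls against 14.83, 14.89, 14.43 and 15.31, a rise of 0.89 ± 0.23 (1.85-fold, adjusted p = 0.027). Rps26, which lines the path of the mRNA through the small subunit, read 12.79, 12.96, 13.06 and 12.72 in controls and 13.76, 13.67, 13.40 and 13.81 in treated rats, a rise of 0.78 ± 0.18 (1.72-fold, adjusted p = 0.0191). Its groups did not overlap. Rpsa, also known as the laminin receptor precursor, lay within 14.44 to 14.57 in the 4 controls and rose to 15.30, 15.33, 14.90 and 15.11, by 0.64 ± 0.18 (1.56-fold, adjusted p = 0.0393). With 1 array left out in turn, Rps19 passed in 6 of 8 fits, Rps26 in 5, and Rps12 and Rpsa in 2 each, with a highest adjusted p of 0.122.

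Other small subunit genes with known separate roles had positive differences that did not pass. Rps3, which also has a part in DNA repair, was separated between groups (13.63, 13.41, 13.76 and 13.83 against 14.59, 14.22, 13.94 and 14.29), with a difference of 0.60 ± 0.20 (adjusted p = 0.0775). Rps6, the main substrate of S6 kinase, read 13.75, 13.90, 14.09 and 13.63 in controls and 14.36, 14.08, 14.38 and 14.62 in treated rats, so that thioacetamide replicate 2 overlapped the controls (0.52 ± 0.20, adjusted p = 0.112). Rps14, the gene of the human 5q- syndrome, had control signals of 13.14, 12.68, 13.14 and 12.77 and treated signals of 13.89, 13.08, 12.86 and 13.53. Its groups overlapped, and the difference was 0.40 ± 0.26 (adjusted p = 0.332). Rps27a, made as a fusion with ubiquitin, had control signals of 13.90, 13.88, 14.09 and 14.00 and treated signals of 14.37, 14.35, 14.00 and 14.58. Thioacetamide replicate 3 lay within the controls, and the difference was 0.35 ± 0.19 (adjusted p = 0.243). The 3 small subunit genes with a value below 0 were Rps7, described further on, and Rps9 and Rps21, named here after their values were seen, at -0.04 ± 0.19 and -0.01 ± 0.27.

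In the large subunit all 33 canonical NM_ genes had a difference above 0, with a median of 0.42 and a lowest value of 0.04 (Rpl38, named after its value was seen). Of these, 7 rose (21.2%, against 12.2% of all NM_ probe sets), and 17 of the 33 were separated upward (51.5%, against 17.8%). All 33 were above background on all 8 arrays, while the comparison sets include many dim probe sets. With the filter on dim probe sets, 24.4% of NM_ probe sets were called higher, so 21.2% was near the share of expressed transcripts. Rpl19, a component of a bridge between the subunits, had the smallest adjusted p of the group: 13.97, 13.96, 14.09 and 13.85 became 14.85, 14.75, 14.90 and 14.84, a rise of 0.87 ± 0.17 (1.82-fold, adjusted p = 0.00723). Its 4 treated values lay closer together than its controls. Rpl15 lay at 13.65, 13.66, 13.56 and 13.46 in controls and at 14.45, 14.31, 14.26 and 14.37 in treated rats, 0.77 ± 0.17 higher (1.70-fold, adjusted p = 0.0132). Both genes passed in all 8 fits that left out 1 array.

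Rpl8, Rpl13a, Rpl28 and Rpl3 were closer to the threshold. Rpl8, which lies near the peptidyl transferase centre, read 13.18, 13.27, 13.56 and 13.50 in controls and 13.88, 14.10, 13.99 and 14.42 in treated rats, a rise of 0.72 ± 0.20 (adjusted p = 0.0355). Rpl13a, known also for repressing the translation of inflammatory mRNAs once released from the ribosome, read 13.87, 13.75, 13.82 and 13.92 against 14.68, 14.45, 14.43 and 14.64, a rise of 0.71 ± 0.17 (1.64-fold, adjusted p = 0.020). In both genes the lowest treated value was above the highest control value. Rpl28 read 14.16, 14.32, 14.53 and 13.81 against 15.02, 14.85, 14.80 and 14.94, a rise of 0.70 ± 0.20 (adjusted p = 0.0443). Rpl3, whose protein reaches into the peptidyl transferase centre, read 13.36, 13.56, 13.68 and 13.62 against 13.98, 14.14, 14.21 and 14.56, a rise of 0.67 ± 0.19 (1.59-fold, adjusted p = 0.0449). Rpl28 and Rpl3 passed in 1 of the 8 fits that left out an array, Rpl8 in 2 and Rpl13a in 6, with a highest adjusted p of 0.121.

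Rpl5, Rpl11 and Rpl23 can bind Mdm2, the ubiquitin ligase of p53, when ribosome assembly is disturbed. Rpl11 read 14.35, 14.63, 14.70 and 14.47 in controls and 14.93 to 15.07 in the 4 treated rats. The groups were separated, and the difference was 0.46 ± 0.17 (adjusted p = 0.109). Rpl5 read 14.13, 14.39, 14.11 and 14.35 against 14.59, 14.13, 14.56 and 14.49, with thioacetamide replicate 2 among the controls (0.20 ± 0.19, adjusted p = 0.523). Rpl23 read 13.95, 14.23, 14.23 and 13.88 against 14.28, 14.29, 14.19 and 14.57, a difference of 0.26 ± 0.19 (adjusted p = 0.399). None of the 3 passed. For Rpl26, which also binds Mdm2, only probe sets of copies were on the array.

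The stalk was measured by 3 NM_ probe sets, all above 0, with a median difference of 0.71. Rplp0, which anchors the stalk to the large subunit, read 14.27, 14.05, 13.77 and 13.97 in controls and 14.89, 14.87, 14.82 and 15.02 in treated rats. It rose by 0.89 ± 0.18 (1.85-fold, adjusted p = 0.00999) and passed in all 8 fits with 1 array left out. Of the acidic proteins that it carries, Rplp1 read 13.67, 13.57, 13.81 and 13.46 in controls and 14.70, 14.03, 14.02 and 14.60 in treated rats, separated by 0.71 ± 0.22 but short of the threshold (adjusted p = 0.059). Rplp2 had control values of 13.80, 14.17, 14.46 and 13.79 and treated values of 14.54, 14.37, 14.62 and 14.90. Control replicate 3 overlapped the treated arrays, and the difference was 0.55 ± 0.22 (adjusted p = 0.127).

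**Figure D2:**
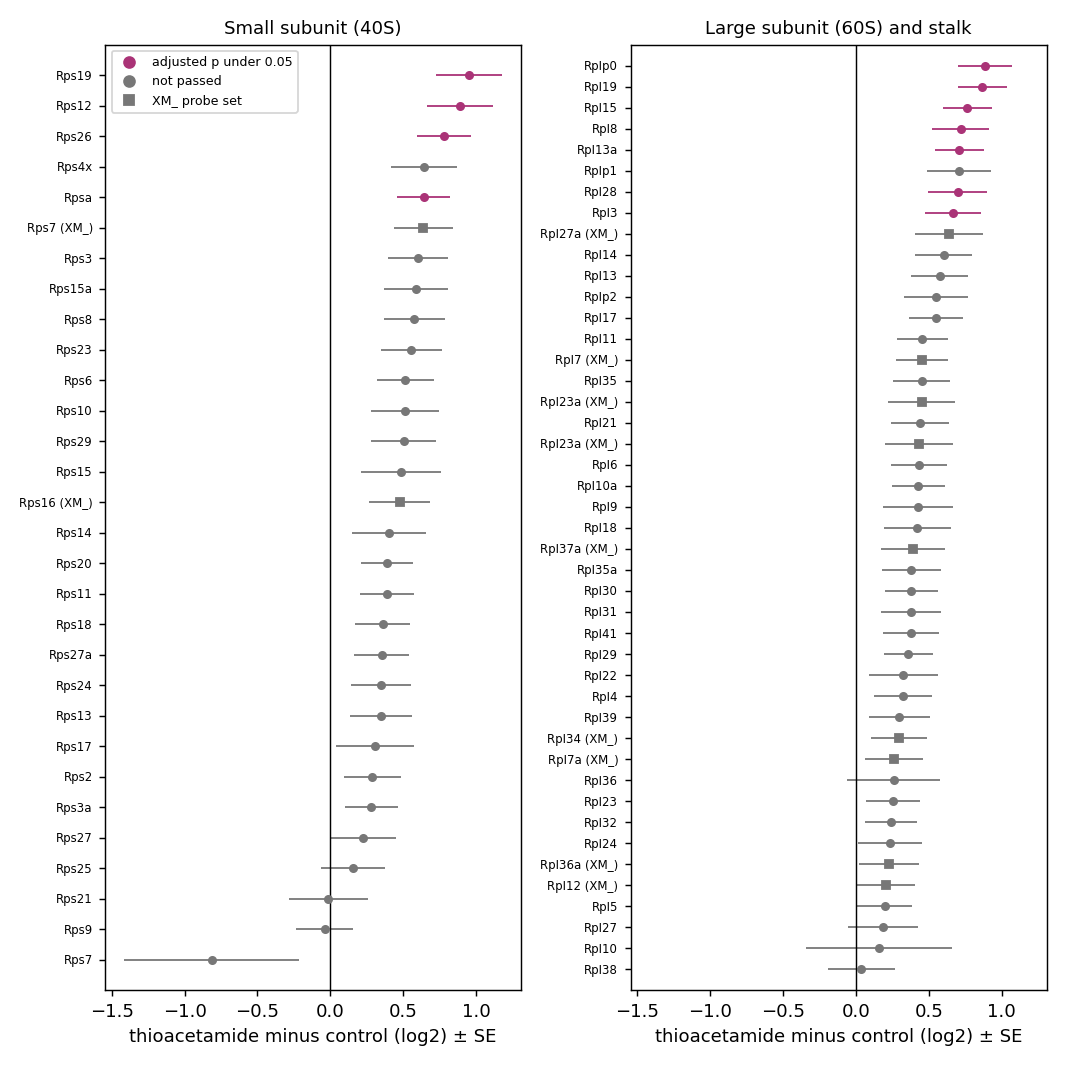
Log2 difference (thioacetamide minus control) and its standard error for 74 probe sets of canonical ribosomal protein genes, in the small subunit (left) and in the large subunit with the stalk (right). Coloured points passed an adjusted p of 0.05, squares are XM_ probe sets, and 71 of the 74 points lie right of 0.

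The 12 XM_ probe sets of canonical genes were all above background on every array and all above 0. Their median was 0.44 and the lowest value 0.21 for Rpl12, and 1 of them passed (8.3%, against 7.72% of all XM_ probe sets). Rpl7 had a difference of 0.46 ± 0.18 (adjusted p = 0.118), Rpl27a of 0.64 ± 0.24 (adjusted p = 0.101), and the pair of probe sets for Rpl23a of 0.43 and 0.45.

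Under 2 gene names in the files the probe sets disagreed. The NM_ probe set of Rps7 read 10.07, 9.75, 7.47 and 9.51 in controls and 8.41, 9.25, 8.78 and 7.10 in treated rats. The groups overlapped, with a difference of -0.81 ± 0.60 (adjusted p = 0.405), and control replicate 3 was under the background level. Whether this probe set measures the gene its symbol names was not settled, and it supplies the lowest value of the canonical genes. Its XM_ probe set read 13.49, 13.91, 13.89 and 13.33 against 14.41, 14.16, 14.21 and 14.39, which did not overlap (0.64 ± 0.20, adjusted p = 0.0617). The NM_ probe set that the files call Rpl36a is now named Rpl36al1 in RefSeq. It read 13.48, 13.60, 13.92 and 13.23 in controls and 13.21, 12.89, 13.08 and 13.50 in treated rats, a difference of -0.39 ± 0.22 (adjusted p = 0.271). The XM_ probe set now named Rpl36a read 13.68, 13.81, 13.77 and 13.40 against 14.24, 13.77, 13.59 and 13.98, a difference of 0.23 ± 0.21 (adjusted p = 0.50). Neither passed. By the current names these are a copy and the canonical gene, not 2 probe sets of 1 gene.

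**Figure D3:**
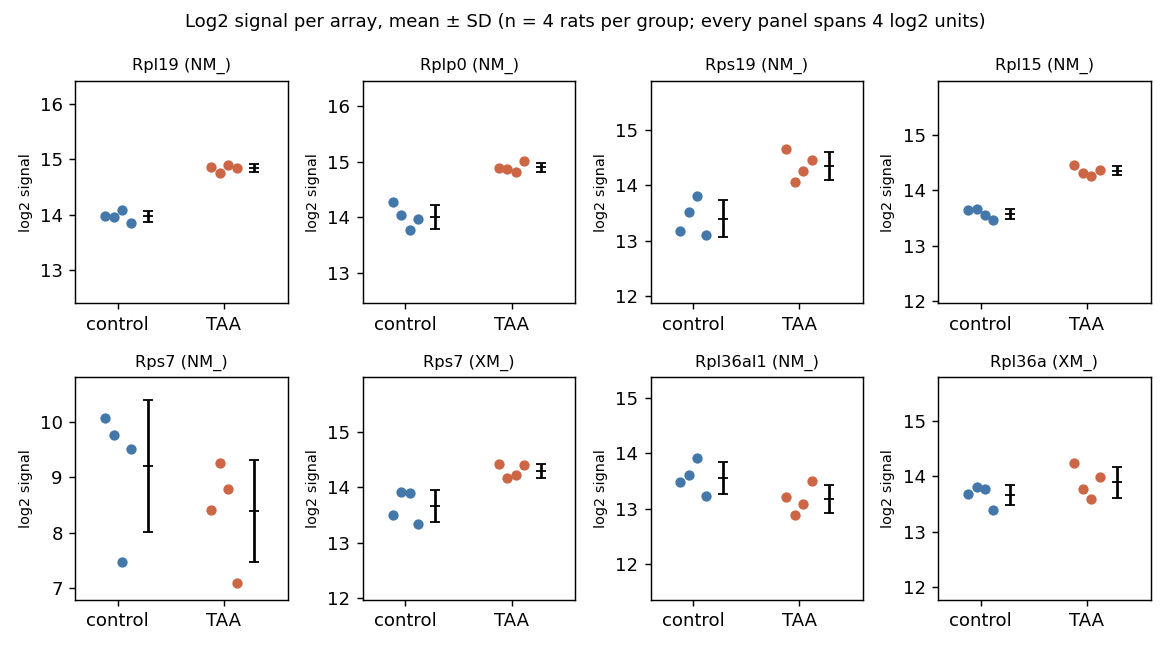
Log2 signal on each array (points) with the mean and SD of 4 rats beside them, for 4 genes that rose and for the gene names whose probe sets disagreed. Every panel spans 4 log2 units: Rpl19 and Rplp0 are tight within groups, while the NM_ probe set of Rps7 spreads from 7.10 to 10.07.

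Paralogs of ribosomal proteins are separate genes that can replace the canonical protein in some cells. Rps27l, a p53 target in human cells, read 12.98, 12.93, 13.42 and 12.76 in controls and 13.88, 13.66, 13.18 and 14.26 in treated rats (0.72 ± 0.26, adjusted p = 0.0947). Rps27 itself read 13.12, 13.20, 13.37 and 12.94 against 13.71, 13.09, 13.02 and 13.71 (0.23 ± 0.23, adjusted p = 0.553). Neither passed alone. Rpl22l1 read 10.74, 10.62, 10.80 and 10.44 in controls and 10.57, 10.15, 9.87 and 10.40 in treated rats (-0.40 ± 0.21, adjusted p = 0.233). Rpl22 read 12.53, 12.85, 13.11 and 12.30 against 13.12, 12.80, 12.83 and 13.35 (0.33 ± 0.23, adjusted p = 0.39). Each of these 4 genes overlapped between groups.

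Whether the change differed within a pair was tested on the per-array difference between the paralog's and the canonical gene's log2 signal. The test was an exact two-sided permutation test over the 70 splits of 8 arrays, whose smallest possible p is 0.0286, with adjustment over the 5 pairs measured. For Rps27l against Rps27 the shift was 0.50 (-0.14, -0.27, 0.04 and -0.18 in controls and 0.17, 0.57, 0.16 and 0.55 in treated rats; exact permutation p = 0.0286, adjusted p = 0.0476). For Rpl22l1 against Rpl22 it was -0.73 (-1.80, -2.23, -2.31 and -1.86 against -2.55, -2.65, -2.96 and -2.95; exact permutation p = 0.0286, adjusted p = 0.0476). In both pairs the groups were separated on all 8 arrays. Both adjusted values rest on counting the pair of Rpl3l and Rpl3, in which Rpl3l had no signal above background; over the other 4 pairs, an adjustment added after the data were seen, the adjusted p by exact permutation was 0.0571 for each, and neither passed. Without control replicate 2 or without thioacetamide replicate 4 the adjusted p was between 0.0714 and 0.0952 and the values were 0.45 and 0.43 for Rps27l and -0.79 and -0.67 for Rpl22l1.

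The other 3 pairs gave no comparable readout. Rpl3l, the form of heart and skeletal muscle, was under the background level on all 8 arrays (5.41 to 6.19), so its value against Rpl3 of -0.59 (exact permutation p = 0.0286, adjusted p = 0.0476) follows Rpl3. Rpl7l1 read 11.05, 10.73, 10.48 and 11.19 in controls and 11.37, 11.65, 11.47 and 11.24 in treated rats (0.57 ± 0.21, adjusted p = 0.106), and its value against Rpl7 was 0.11 (exact permutation p = 0.657). The probe set that the files call Rpl10l, now Rpl10l1, read 9.23, 8.03, 7.93 and 9.12 against 10.73, 8.43, 9.24 and 10.15 (1.06 ± 0.50, adjusted p = 0.188). Rpl10 read 13.88, 12.94, 12.11 and 12.72 against 13.90, 13.82, 12.70 and 11.85, and the pair's value of 0.90 did not pass (exact permutation p = 0.343, adjusted p = 0.429). It rested on single arrays: it was 0.33 without thioacetamide replicate 4, 1.56 without thioacetamide replicate 2 and 0.11 without the 3 arrays that stood apart. Rps19bp1, a binding partner of Rps19 caught by the symbol rule and no ribosomal protein, lay between 11.89 and 12.11 on all arrays (0.04 ± 0.16).

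**Figure D4:**
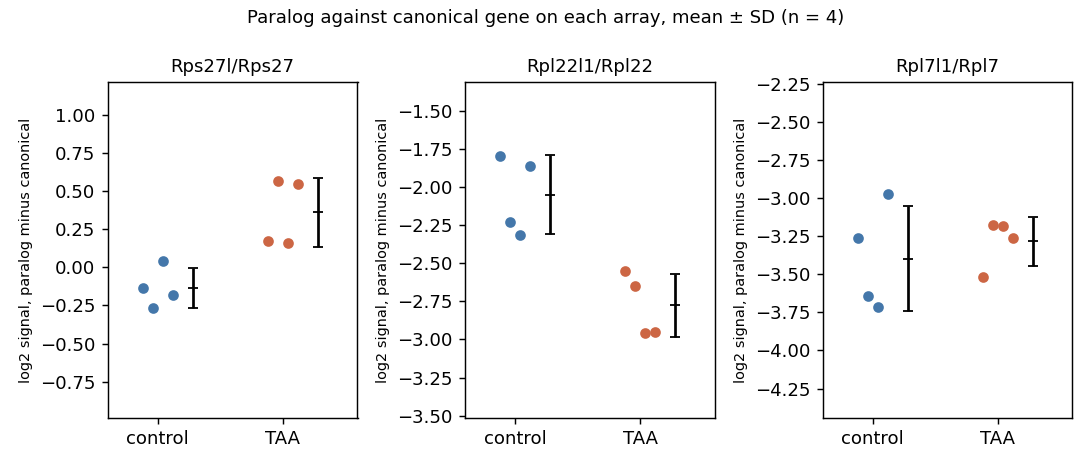
Log2 signal of the paralog minus that of its canonical gene on each array, with the mean and SD of 4 rats. The height of a panel's values has no meaning between probe sets; the shift between groups is 0.50 for Rps27l, -0.73 for Rpl22l1 and 0.11 for Rpl7l1.

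Among the 175 XM_ members, which were mostly copies, 4 were called higher (2.3%) and 1 lower, beside 7.72% and 4.51% of all XM_ probe sets. The split was 1 higher and 1 lower after median centring of the arrays, 4 and 2 after cyclic loess, and 4 and 0 after quantile normalization. The shares higher were 0.571%, 2.29% and 2.29%, against 6.37%, 6% and 7.03% of all XM_ probe sets. Groups were separated upward in 13 (7.4%) and downward in 4, where 11.5% and 6.41% of all XM_ probe sets were. Differences were above 0 in 107 (61.1%), against 45.3% of all XM_ probe sets, with a median of 0.08 against -0.06. With 1 array left out the XM_ median ran from 0.03 (without control replicate 3) to 0.18 (without thioacetamide replicate 3) and 0.19 (without control replicate 1), with 92 to 126 above 0. Without the 3 arrays that stood apart it was -0.01. The calls were thus no more frequent than among predicted transcripts in general, except with an intensity trend and robust estimation. In that fit 18 members (10.3%) were called higher, against 8.24% of all XM_ probe sets.

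Of the XM_ members called higher, 3 were copies. Rps19l1 read 12.46, 12.50, 12.10 and 12.49 in controls and 13.37, 12.94, 12.95 and 13.23 in treated rats (0.73 ± 0.19, adjusted p = 0.0322). Rps23-ps11 read 13.18, 13.22, 12.66 and 12.90 against 13.76, 13.83, 13.63 and 13.46 (0.68 ± 0.20, adjusted p = 0.0459). Rps16l1 read 13.96, 14.05, 14.01 and 13.91 against 14.52, 14.70, 14.49 and 14.65 (0.61 ± 0.17, adjusted p = 0.0364). All 3 were separated between groups, and with 1 array left out they passed in 1, 0 and 1 of 8 fits. The copy called lower, Rpl37al2, read 6.53, 6.65, 6.69 and 7.41 in controls, with 1 of these above background, and was not above background in any treated rat (5.90, 6.05, 5.71 and 6.26). Its measured means were 6.82 and 5.98 (adjusted p = 0.042), both near the background, so no fold is given, and it passed in 3 of 8 fits.

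The copies were also read by signal, and the differences between these classes were not tested. Of the 158 XM_ copies, 91 had a difference above 0, with a median of 0.04. The 37 copies with a mean log2 signal above 13, a level chosen after the data were seen, had 31 differences above 0 and a median of 0.24. The 63 dimmer copies that were above background on all 8 arrays had 36 above 0 and a median of 0.05. The 33 copies above background on some arrays had 15 above 0 (median -0.08), and the 25 on no array had 9 (median -0.11). Probes of a copy and of its parent gene can share sequence, and how much of a copy's signal came from the parent's mRNA was not tested. A further 296 XM_ probe sets, described in the files as similar to a ribosomal protein but without a member's symbol, had 150 differences above 0, a median of 0.01, and 0 called higher and 6 lower (9 and 26 at an unadjusted p under 0.05). Of all 16111 XM_ probe sets, 1244 (7.72%) were called higher and 727 (4.51%) lower, with 2377 and 2100 at an unadjusted p under 0.05.

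**Figure D5:**
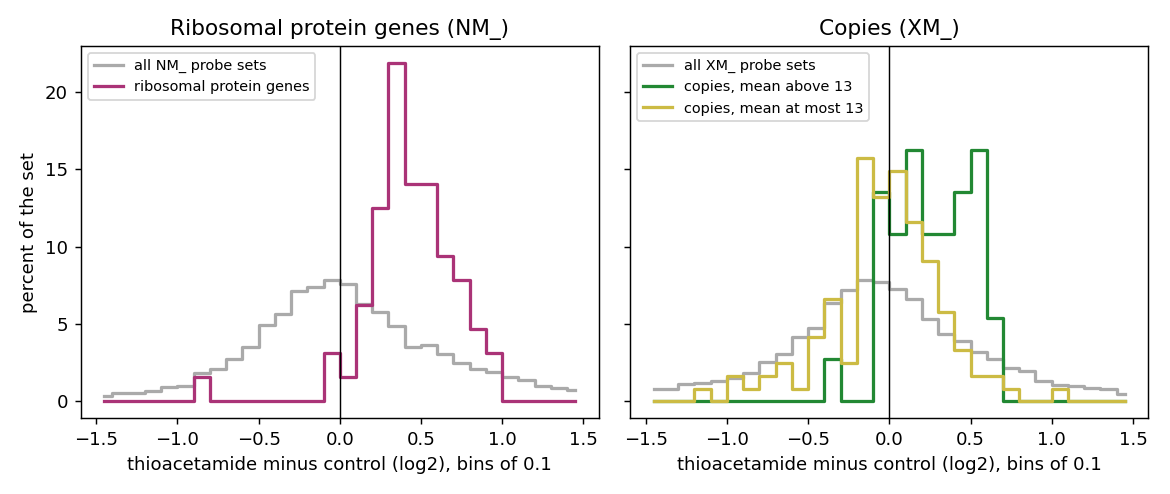
Share of probe sets (percent) in bins of 0.1 log2 difference between thioacetamide and control. Left, the 64 canonical NM_ genes against all NM_ probe sets, with 61 of the 64 above 0; right, XM_ copies with a mean log2 signal above 13 (31 of 37 above 0) and the dimmer ones against all XM_ probe sets.

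Counts of copies above 0 were also read by family, and differences between families were not tested. Across all XM_ probe sets 45.3% were above 0. In the families with at least 7 probe sets, all 8 copies of Rpl27a had differences above 0 (0.03 to 0.67, with 0.64 for Rpl27a itself), as had all 5 copies of Rpl23a (0.06 to 0.35). In contrast, 2 of 8 copies of Rpl31 were above 0 (-0.50 to 0.17, with 0.38 for Rpl31). So were 4 of 10 of Rpl29 (-0.64 to 0.42, with 0.36 for Rpl29) and 3 of 6 of Rpl27 (-0.78 to 0.22, with 0.19 for Rpl27). Copies are counted by probe set, so that Rpl31l6 enters with -0.11 and with 0.001. The latter probe set was above background on no array. For Rpl37a and Rpl36a 2 of 6 and 3 of 6 copies were above 0, and those of Rpl36a include the NM_ probe set Rpl36al1. Many copies were dim. Above background on all arrays were 5 of the copies of Rpl27a, 3 of Rpl23a, 4 of Rpl31 and 6 of Rpl29. For Rpl27, Rpl37a and Rpl36a these counts were 4, 3 and 5. Of the 6 copies with NM_ accessions none passed the test at adjusted or unadjusted p under 0.05, and 2 were above background on all arrays.

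Genes that act with the ribosomal proteins were read from lists. Of the 3 ribosomal proteins outside the symbol rule all were above 0 and 1 rose. Rack1, a scaffold on the small subunit, read 13.39, 13.24, 13.22 and 13.30 in controls and 14.14, 13.82, 13.88 and 14.15 in treated rats and rose by 0.71 ± 0.18 (1.64-fold, adjusted p = 0.0234). Fau, a fusion gene of a ubiquitin-like protein with a small subunit protein, had a difference of 0.25 ± 0.19 (adjusted p = 0.42). Of 18 other mRNAs known as TOP mRNAs, mostly elongation and initiation factors, all 18 were above 0, with a median of 0.59, and 7 rose (38.9%, against 9.46% of all probe sets). The largest of these were the histone chaperone Nap1l1 (0.79 ± 0.21, adjusted p = 0.0322), the splicing regulator Hnrnpa1 (0.78 ± 0.20, adjusted p = 0.0278) and the elongation factor subunit Eef1d (0.70 ± 0.19, adjusted p = 0.0349). All 18 TOP mRNAs were above background on every array. With the filter on dim probe sets, 24.4% of NM_ and 17.1% of XM_ probe sets were called higher, a nearer comparison for the 38.9%.

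The factors that assemble ribosomes had a larger median difference than the ribosomal proteins themselves, and the difference between lists was not tested. Their signals were also lower, with a median of 11.25 against 13.97 for the canonical NM_ genes. The part of signal level in this difference was not tested. Of 37 ribosome biogenesis genes, 36 were above 0, 29 rose (78.4%, against 9.46% of all probe sets) and none fell, with a median of 1.21. Gar1, a protein of the H/ACA ribonucleoprotein that modifies ribosomal RNA, went from 9.21 ± 0.18 to 11.87 ± 0.37 (SD, n = 4), a rise of 2.66 ± 0.23 (SE; adjusted p = 9.96e-05). Nop58, a core protein of the C/D ribonucleoprotein, rose by 2.38 ± 0.19 (adjusted p = 7.34e-05), and Wdr43, a factor of small subunit assembly, by 2.33 ± 0.30 (adjusted p = 0.000892). Of the 72 genes with a symbol of a mitochondrial ribosomal protein, 41 were above 0, 7 rose and 1 fell, with a median of 0.05. By their symbols these include a pseudogene (Mrpl30-ps10) and "like" genes (Mrpl41l1 and Mrps21l). The share called higher was 9.7%, against 9.46% of all probe sets. With the filter on dim probe sets, it was 24.4% of NM_ and 17.1% of XM_ probe sets. The largest mitochondrial rises that passed were Mrps2 (1.36 ± 0.22, adjusted p = 0.00273) and Mrpl38 (0.94 ± 0.21, adjusted p = 0.0134), and Mrpl47 rose by 0.92 ± 0.25 (adjusted p = 0.0341).

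Of 13 regulators of ribosomal protein synthesis, 12 were above 0, 3 rose (23.1%, against 9.46% of all probe sets) and none fell. On all arrays 11 of the 13 were above background. With the filter on dim probe sets, 24.4% of NM_ and 17.1% of XM_ probe sets were called higher, so 23.1% was near the share of expressed transcripts. Myc, a transcription factor that drives ribosome production, read 10.62, 10.16, 10.34 and 11.98 in controls and 12.63, 12.23, 12.79 and 12.49 in treated rats, a rise of 1.76 ± 0.37 (3.38-fold, adjusted p = 0.011). Control replicate 4 was well above the other controls and still under every treated rat. Eif4e, the cap-binding protein, rose by 0.94 ± 0.20 (adjusted p = 0.0127), and Rheb, the activator of mTOR, by 0.58 ± 0.17 (adjusted p = 0.0457). The median of this list was 0.41.

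Some markers of other liver cells passed the test in the same samples, and their part in the ribosomal protein values was not tested. Over all probe sets 9.46% were called higher and 5.14% lower. All 8 macrophage markers were above background and below 0 in difference, and 4 fell, among them Cd14, which fell by 2.16 ± 0.19; the log2 of their summed signal was 14.80 to 15.54 in controls and 14.15 to 14.73 in treated rats. Of 7 T and NK cell markers, 2 passed (Gzma fell by 2.21 ± 0.28 and Nkg7 fell by 1.04 ± 0.29) and 2 were above background on no array, with sums of 10.58 to 11.35 and 9.59 to 10.03. Of 4 B cell markers none passed and 3 were above background on no array (sums of 7.95 to 8.56 and 7.78 to 8.25). Of 7 stellate cell markers 3 rose (sums of 12.83 to 13.84 and 13.27 to 14.02), among them Des, above background on only 2 arrays. Col1a1 (0.51), Rgs5 (-0.01), Pdgfrb (-0.46) and Acta2 (-0.71) did not pass. Of 6 endothelial markers none passed (13.39 to 13.72 and 13.07 to 13.54). Of 6 bile duct markers 2 rose, Cldn7 by 3.52 ± 0.32 and Epcam by 1.87 ± 0.26 (10.88 to 12.42 and 12.64 to 13.13). Sox9 (1.26), Krt7 (0.23), Krt19 (0.08) and Spp1 (-0.31) did not pass. In RNA of whole liver, a change in the number of cells of a type and a change in RNA per cell cannot be told apart.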

How the data were processed

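The deposited values are log2 expression values of 26208 probe sets on 8 arrays, made by the authors with RMA per the submitters' processing notes. No source used here states its settings, the scanner or the array's annotation build. Values were tested as deposited; the steps for raw intensities that the design held in reserve were not needed. In control replicate 4, 11 probe sets, none a member, had no value.

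Probe sets were named by accession, then by gene identifier, through a RefSeq table of GRCr8, and otherwise kept the symbol of the files. Groups were compared with limma 3.58.1 in R 4.3.3 (lmFit and eBayes, two-sided, Benjamini-Hochberg adjustment over 26208 probe sets, threshold 0.05); a difference is thioacetamide minus control. The procedure was tested on simulated data. A few genes are not reported here, though counts and medians include them. Pairs of genes were compared with an exact permutation test. Levels of different probe sets are not comparable. Precision is limited by the number of arrays, which have no depth.

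Genes were named by rule: called members with the largest differences (12 per direction for NM_, 5 for XM_), paralogs with their canonical genes, stalk genes, 10 genes with known roles, genes whose probe sets disagree, and per list the 3 called genes with the largest difference. The members and lists were chosen with earlier results of these data known, so no p-value over members is given. Replicate numbers did not pair the samples, with correlations of 0.25, -0.10, -0.13 and -0.43 between same-numbered arrays. Alternatives covered normalization, a filter on dim probe sets, the variance model, array weights, a block, and arrays left out.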

Additional observations from a re-analysis of the deposited data

Results flagged for a closer look

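Of 180 groups of 4 arrays examined for members, 2 (1.1%) held an array far from the other 3; chance alone flags about 1 in 20. In Rpl18, thioacetamide replicate 4 read 15.21 where the other treated rats read 14.52 to 14.59. In the copy Rps19l1, control replicate 3 read 12.10 against 12.46 to 12.50.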

How the results depend on the processing

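The median difference of the NM_ members lay between 0.33 and 0.49 under all alternatives, and 62 to 65 of the 70 were above 0 (62 of 67 with the filter on dim probe sets). The number called higher among them moved from 12 (17.1%, against 12.2% of all NM_ probe sets) to 29 with an intensity trend and robust estimation (41.4% against 14.2%), to 22 with array weights (31.4% against 14.9%) and to 2 with the replicate block (2.86% against 7.48%), and ran from 4 to 14 with 1 array left out; 1 was called lower without the 3 arrays that stood apart. For the XM_ members the median was 0.08 and turned to -0.011 without the 3 arrays. Against 4 called higher (2.29%, against 7.72% of all XM_ probe sets) there was 1 after median centring (0.571% against 6.37%). There were 9 with the filter (6.43% against 17.1%), 18 with the trend (10.3% against 8.24%) and 8 with array weights (4.57% against 9.89%). With the replicate block there were 0 (against 4.48%), and without the 3 arrays 2 (1.14% against 7.34%). With 1 array left out there were 0 to 3 (0 to 1.71%, against 4.2 to 7.58%). Against 1 called lower there were 2 after cyclic loess, 0 after quantile normalization, 2 with the filter, 0 with the trend, 2 with array weights, 0 with the replicate block, 3 without the 3 arrays and 0 to 2 with 1 array left out. The pairs of Rps27l (0.50) and Rpl22l1 (-0.73) did not pass when the pair of Rpl3l, which had no signal above background, was left out of the adjustment (adjusted p = 0.0571 by exact permutation; added after the data were seen). The pairs did not pass with the replicate block, where the values were the same (Rps27l 0.50, Rpl22l1 -0.73, Rpl3l -0.59; adjusted p = 0.208 by exact permutation within pairs), nor without the 3 arrays (0.46, -0.89 and -0.26; adjusted p = 0.167), designs with too few splits for an adjusted p under 0.05. With 1 array left out the values ran from 0.43 to 0.56 for Rps27l, from -0.81 to -0.64 for Rpl22l1, from -0.66 to -0.41 for Rpl3l and from 0.33 to 1.56 for Rpl10l1. Of the values of 92 single members under the alternatives, 1320 kept their side of the threshold, 99 no longer passed and 48 newly passed. None changed direction as a called value. A value called in neither fit was counted as kept even where its sign changed, as for Rps21 (-0.15 to 0.20 with 1 array left out). The causes of these changes were not tested.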
